A study of Mus musculus with 12 samples.

Results

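Cdx1, Cdx2, Gata4, Gata6, Klf4, Klf5, Foxa1 and Foxa2, which encode the sequence-specific transcription factors that set intestinal epithelial identity, were chosen by gene name, and all 8 were present among the 18929 genes of the deposited count tables. The RNA was from mouse jejunal enteroids, the budding epithelial cultures that grow from isolated crypts, kept in ENR medium (EGF, Noggin and R-spondin) for 5 days. Of the 12 RNA-Seq libraries, 4 were from control, 4 from Hdac1-deficient and 4 from Hdac2-deficient enteroids. In the mutants the floxed Hdac1 or Hdac2 gene was deleted by Cre under the villin promoter, which is active in intestinal epithelial cells, and the labels give the genotypes as HDAC1-/- and HDAC2-/-. The paper's results call the control villin-Cre and its methods call it wild-type, so whether the control carried Cre was not settled. The mice were on a mixed C57BL/6J, 129SV and CD1 background. Crypts came from 1 mouse of each genotype according to the methods. Whether the replicate libraries came from separate cultures is not stated, so p-values measure only the spread between these libraries, which may be technical, and genotype cannot be told apart from mouse and culture line. The age and sex of the mice were not given in the sources used here.

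Members of these 4 families bind many of the same regulatory elements in intestinal epithelium. CDX factors are the homeodomain proteins that give the gut endoderm its intestinal, rather than gastric, character and keep enterocyte genes active in the adult. GATA4 marks the proximal small intestine and separates jejunal from ileal enterocytes, while GATA6 acts more widely along the gut. KLF5 is enriched in proliferating crypt cells and KLF4 in differentiated and goblet cells. FOXA1 and FOXA2 are winged-helix pioneer factors that open chromatin in endoderm and take part in enteroendocrine and goblet cell differentiation. HDAC1 and HDAC2 are class I deacetylases that remove acetyl groups from histones and other proteins, and the comparisons asked how the loss of either changed the level of these factors.

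Libraries held between 20692613 and 30656263 counts, and every member was counted at least 366 times in every library. Hdac1 lay at 90.6 ± 2.76 CPM (counts scaled to library size, mean ± SD, n = 4) in control enteroids, 4.23 ± 0.834 CPM in those deleted for Hdac1 and 75.3 ± 4.39 CPM in those deleted for Hdac2. Hdac2 lay at 137 ± 3.85, 112 ± 3.83 and 75.9 ± 2.89 CPM in the same order. Hdac2 counts were thus lower but far from absent in the Hdac2-deficient libraries. The paper found both deletions in RNA and in protein, by RT-PCR, Western blot and immunofluorescence. Counts per gene do not show which exons the reads lay in, so they do not measure the HDAC2 protein that remained. Xist, the RNA of the inactive X chromosome, lay at 1.57 ± 0.174 CPM in control, 917 ± 130 CPM in Hdac1 mutants and 584 ± 83 CPM in Hdac2 mutants. The Y-linked genes Ddx3y, Kdm5d, Eif2s3y and Uty were not among the listed genes, for control or mutants. Listing asked for counts summing to 10 or more. Control libraries thus had neither Xist at the level of the mutants nor any of these Y-linked genes listed, and the sex of the mice was not settled. What the Xist difference reflects was not tested, and it cannot be told apart from genotype for any gene here. All 8 members are on autosomes. Epithelial markers were far above mesenchymal ones, with a summed level of the 8 epithelial markers (Epcam, Cdh1 and keratins among them) between 6881 and 9078 CPM, against 4.951 to 7.48 CPM for the mesenchymal markers, of which 4 of 10 were listed, and 2.212 to 5.783 CPM for the immune and endothelial markers, of which 5 of 10 were listed.

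None of the 8 factors changed by more than 2-fold in either mutant, and Foxa1 and Foxa2 moved furthest, in opposite directions. Foxa1 rose by 0.50 on the log2 scale in Hdac1-deficient and by 0.72 in Hdac2-deficient enteroids, while Foxa2 fell by 0.64 and by 0.57. Klf4 and Klf5 rose in both mutants, Cdx1 rose in Hdac1-deficient enteroids and Gata4 in Hdac2-deficient enteroids. Cdx2 and Gata6 did not pass the test against control in either mutant. The test was edgeR's quasi-likelihood F test on the counts, with Benjamini-Hochberg adjustment over all tested genes, and genes passed up to an adjusted p of 0.05.

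Of the 8 members, 5 passed in Hdac1-deficient enteroids (4 higher and 1 lower), where 64.6% of the 14246 tested genes passed (32.7% higher and 31.9% lower). In Hdac2-deficient enteroids 5 of 8 passed as well (4 higher and 1 lower), against 62.3% of 14007 tested genes (31.4% higher and 30.9% lower). At more than 2-fold, 0 members were called, where 10.6% and 8.3% of all tested genes were. The libraries of the 2 groups did not overlap for 5 members in each mutant, against 58.5% and 56% of all tested genes. Thus the members passed about as often as genes in general. Their median absolute log2 change was 0.19 in Hdac1 mutants and 0.21 in Hdac2 mutants, beside 0.25 and 0.23 over all tested genes. The signed medians were 0.098 and 0.080, with medians over all tested genes of -0.0040 and -0.0036.

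**Figure D1:**
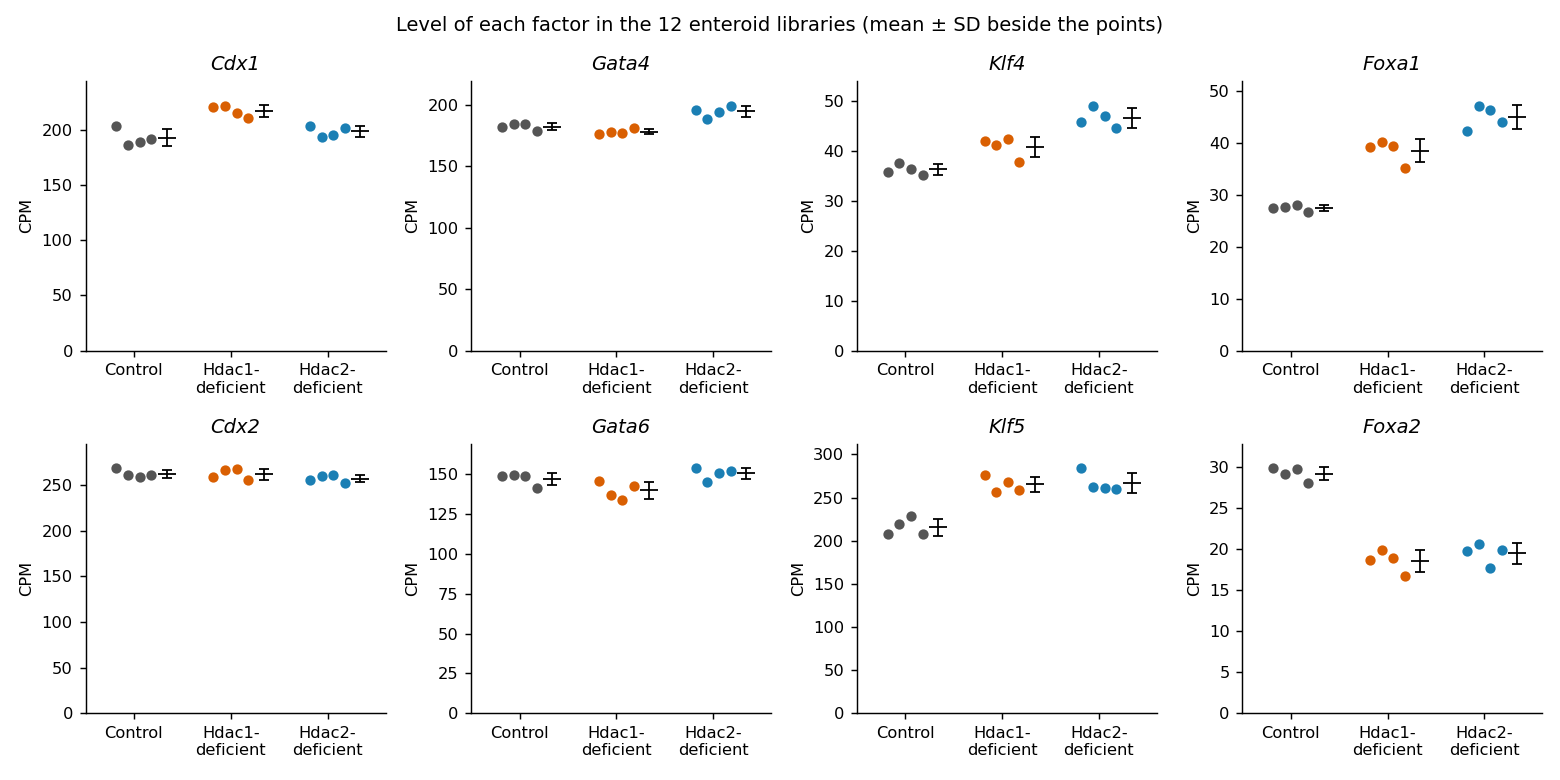
CPM of each factor (vertical axes, each from 0) in the 4 control, 4 Hdac1-deficient and 4 Hdac2-deficient libraries, 1 point per library, with the group mean ± SD as a bar beside the points. Foxa1 rises from 27.4 CPM in control to 38.4 and 44.9 CPM and Foxa2 falls from 29.2 to 18.6 and 19.5 CPM, while the Cdx2 points stay between 252.6 and 268.4 CPM.

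**Figure D2:**
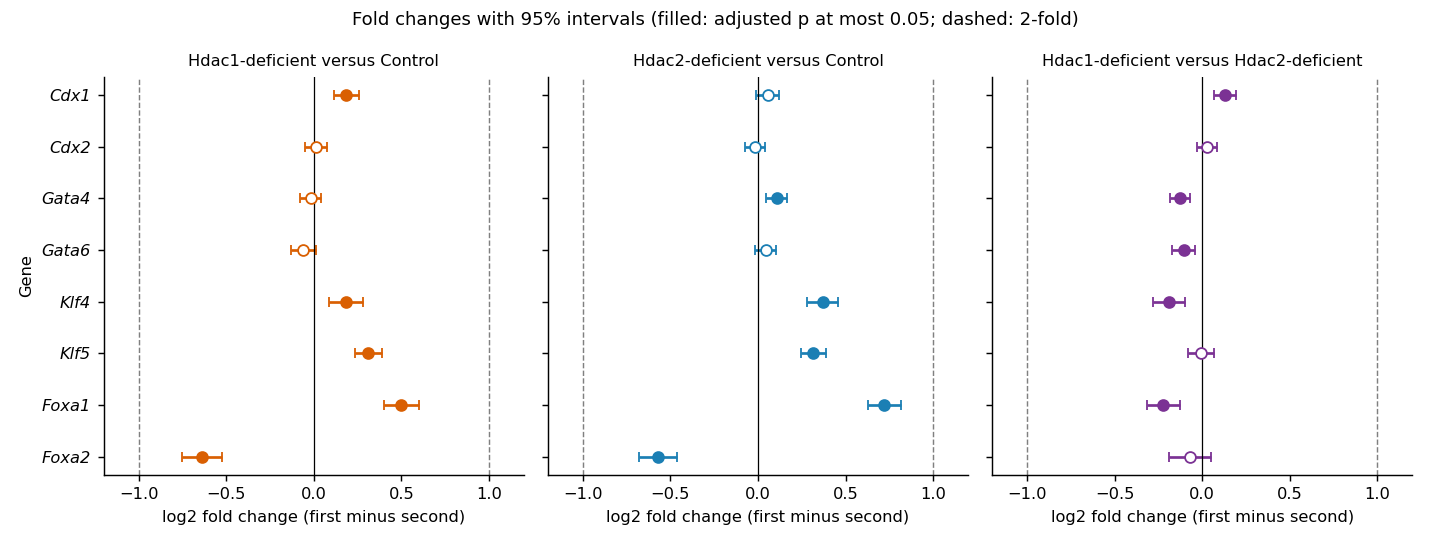
Log2 fold change (horizontal axis) of each factor with its 95% confidence interval in Hdac1-deficient versus control, Hdac2-deficient versus control and Hdac1-deficient versus Hdac2-deficient enteroids. Filled points passed an adjusted p of 0.05 and dashed lines mark 2-fold, which no interval reaches, the widest excursions being 0.81 for Foxa1 and -0.75 for Foxa2.

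Per length, the CDX genes were the most abundant of the 8. In control enteroids Cdx2 lay at 116 ± 1.87 and Cdx1 at 110 ± 4.34 CPM per kilobase of exon, above 97.1% and 96.9% of 14456 ranked genes. Their control ranges met, with Cdx2 between 114 and 119 and Cdx1 between 106 and 116 CPM per kilobase. Within each control library Cdx2 was slightly the higher, at 50.5 to 52.1% of the pair. Gata4 followed at 46.7 ± 0.71, Klf5 at 41.5 ± 1.89 and Gata6 at 22.6 ± 0.585 CPM per kilobase, and these 3 did not overlap one another. Foxa2 and Klf4, at 12.3 ± 0.339 and 11.9 ± 0.339 CPM per kilobase, overlapped, and Foxa1 was lowest at 8.25 ± 0.165 CPM per kilobase. In the mutants the order differed. Klf5 exceeded Gata4 in Hdac1-deficient enteroids (51.0 against 45.7) and overlapped it in Hdac2-deficient enteroids (51.3 against 49.9 CPM per kilobase). Foxa1 exceeded Foxa2 in both (11.5 against 7.83 and 13.5 against 8.23), and so did Klf4 (13.4 and 15.3). Cdx1, at 124 ± 2.9 CPM per kilobase, lay above Cdx2, at 116 ± 2.59, in Hdac1-deficient enteroids.

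**Figure D3:**
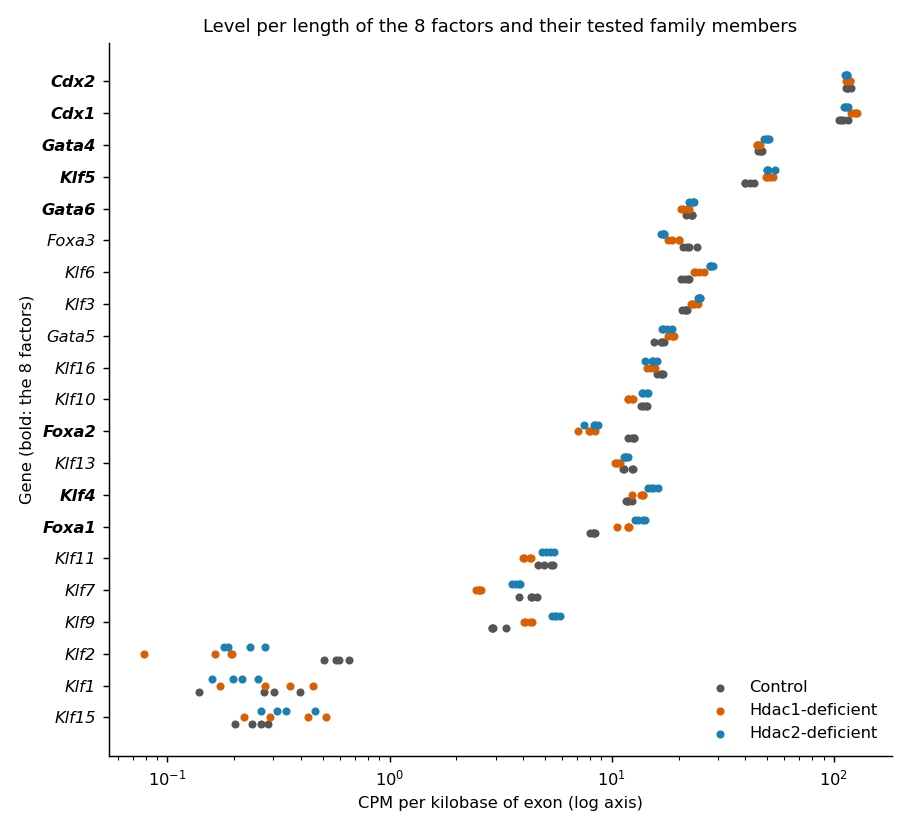
CPM per kilobase of exon (log axis) of the 8 factors (bold) and their 13 tested family paralogs, 1 point per library and coloured by group. In control libraries Cdx2 and Cdx1 lie above 100 and Foxa1 near 8.25, and the Foxa1 and Foxa2 points change places between control and mutant libraries.

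Cdx2, on chromosome 5 (147300805 to 147307270, minus strand, GRCm38), is the factor whose loss turns intestinal epithelium towards a gastric or oesophageal pattern. Its levels were 268.4, 261.4, 258.6 and 260.9 CPM in the 4 control libraries, 259.2, 266.2, 267.3 and 255.0 CPM in the Hdac1-deficient libraries and 255.1, 259.6, 261.1 and 252.6 CPM in the Hdac2-deficient libraries. The 3 groups overlapped, and the within-group coefficient of variation was 1.53 to 2.23%. The log2 fold change was 0.01 (95% confidence interval -0.05 to 0.08, adjusted p = 0.73, edgeR) in Hdac1-deficient and -0.02 (-0.08 to 0.04, adjusted p = 0.58, edgeR) in Hdac2-deficient enteroids. These intervals correspond to a change between 3.49% lower and 5.46% higher for Hdac1 and between 5.07% lower and 2.73% higher for Hdac2, which is as far as these libraries limit the size of a change.

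The 250 bases before the Cdx2 start in RefSeq (GRCm38.p6, chr5:147307250-147307499, minus strand, read 5′ to 3′ towards the gene) are shown so that the start region of a factor that did not pass the test can be set beside those of the FOXA pair, which moved apart. Capitals mark matches on either strand to 4 short binding words, TGTTTAC for FOXA, TTTATGG for CDX, AGATAA for GATA and GGGTGTG for KLF proteins.
Cdx2: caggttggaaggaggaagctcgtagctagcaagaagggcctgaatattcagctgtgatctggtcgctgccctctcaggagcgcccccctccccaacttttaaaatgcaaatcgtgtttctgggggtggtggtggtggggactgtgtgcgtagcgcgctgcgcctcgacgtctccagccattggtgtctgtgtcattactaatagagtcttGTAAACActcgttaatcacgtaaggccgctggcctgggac
The single match, GTAAACA, is the reverse complement of the FOXA word, 40 to 34 bases before the start. That word was found in 3.17% of 32851 RefSeq start windows of this length, the CDX word in 2.43%, the GATA word in 9.99% and the KLF word in 6.93%. A match describes letters in this window and not a bound site. The Cdx2 window shares 21 bases with the exons of Cdx2 in GENCODE M21, since that annotation has a start further upstream.

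Cdx1, a WNT target gene whose protein overlaps CDX2 in function, is on chromosome 18 (61018862 to 61036199, minus strand). It was counted at 203.5, 186.1, 189.2 and 192.1 CPM in control, 220.3, 222.0, 215.3 and 210.8 CPM in Hdac1 mutants and 203.8, 193.6, 195.6 and 201.4 CPM in Hdac2 mutants. All 4 Hdac1-deficient libraries lay above every control, whereas the Hdac2-deficient libraries overlapped the control range. Cdx1 rose by 0.19 on the log2 scale in Hdac1-deficient enteroids (0.12 to 0.26, adjusted p = 7.3e-05, edgeR), a rise of 13.8% (8.37 to 19.5%). In Hdac2-deficient enteroids the value was 0.05 (-0.01 to 0.12, adjusted p = 0.14, edgeR). Control library 1, at 203.5 CPM, decided that call, since without it Cdx1 passed at 0.08 (adjusted p = 0.018, edgeR). The direct comparison of the mutants passed, with Cdx1 higher in Hdac1-deficient enteroids by 0.13 (0.06 to 0.20, adjusted p = 0.0015, edgeR).

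The ratio of Cdx2 to Cdx1 counts within a library was 1.36 ± 0.0354 in control, 1.21 ± 0.0271 in Hdac1 mutants and 1.30 ± 0.0492 in Hdac2 mutants. The Hdac1-deficient ratios, 1.18 to 1.24, lay below every control ratio, 1.32 to 1.40. The summed level of the pair was 226 ± 6.06 CPM per kilobase in control, 240 ± 4.78 in Hdac1 mutants and 227 ± 1.59 in Hdac2 mutants.

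Gata4, on chromosome 14 (63198922 to 63271692, minus strand), is the jejunal GATA factor. Control libraries held 181.8, 184.8, 184.2 and 178.7 CPM, Hdac1-deficient libraries 176.8, 178.2, 176.9 and 181.3 CPM, and Hdac2-deficient libraries 196.2, 188.8, 194.5 and 199.6 CPM. Each Hdac2-deficient library lay above each control, and the Hdac1-deficient libraries overlapped control. Gata4 rose by 0.11 in Hdac2-deficient enteroids (0.05 to 0.16, adjusted p = 0.0026, edgeR), a rise of 7.6%, the smallest change of a member that passed against control. In Hdac1-deficient enteroids the log2 fold change was -0.02 (-0.08 to 0.04, adjusted p = 0.61, edgeR). Compared directly, Gata4 was lower in Hdac1 mutants than in Hdac2 mutants, by a log2 difference of -0.13 (-0.18 to -0.07, adjusted p = 0.00059, edgeR).

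Gata6, on chromosome 18 (11052064 to 11085635, plus strand), is needed for crypt proliferation and lineage balance. It lay at 148.8, 149.1, 148.5 and 141.2 CPM in control, 145.7, 136.8, 133.5 and 142.3 CPM in Hdac1 mutants and 153.5, 145.2, 150.7 and 151.6 CPM in Hdac2 mutants. Control library 4 stood apart from the other controls, and both mutant groups overlapped control. The log2 fold change was -0.06 (-0.13 to 0.01, adjusted p = 0.14, edgeR) in Hdac1-deficient and 0.04 (-0.02 to 0.10, adjusted p = 0.21, edgeR) in Hdac2-deficient enteroids. Without control library 4 these values were -0.078 (adjusted p = 0.087, edgeR) and 0.019 (adjusted p = 0.64, edgeR). The direct comparison passed at -0.11 (-0.17 to -0.04, adjusted p = 0.0091, edgeR), although the mutant libraries overlapped at 145.2 to 145.7 CPM. An antisense transcript, 1010001N08Rik, shares 93 exon bases (1.43%) with Gata6, and reads of the 2 cannot be told apart there unless strand was used in counting, which was not given in the sources used here.

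Gata4 and Gata6 kept close proportions. Their count ratio was 1.24 ± 0.0178 in control, 1.28 ± 0.0484 in Hdac1 mutants and 1.30 ± 0.0161 in Hdac2 mutants. The Hdac2-deficient ratios, 1.28 to 1.32, lay above the control ratios, 1.22 to 1.27, and the Hdac1-deficient ratios spanned both groups.

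Klf4, on chromosome 4 (55527143 to 55532466, minus strand), is a zinc-finger factor of post-mitotic cells and of goblet cell maturation. Its control libraries held 35.88, 37.70, 36.41 and 35.27 CPM, the Hdac1-deficient libraries 42.02, 41.12, 42.32 and 37.82 CPM, and the Hdac2-deficient libraries 45.72, 49.11, 46.99 and 44.60 CPM. The 3 groups did not overlap, although the lowest Hdac1-deficient library, at 37.82 CPM, lay just above the highest control, at 37.70 CPM. Klf4 rose by 0.18 in Hdac1-deficient enteroids (0.09 to 0.28, adjusted p = 0.0015, edgeR) and by 0.37 in Hdac2-deficient enteroids (0.28 to 0.46, adjusted p = 1.6e-07, edgeR). The difference between the mutants passed its own test at -0.19 (-0.28 to -0.10, adjusted p = 0.00079, edgeR).

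Klf5, on chromosome 14 (99298691 to 99315036, plus strand), lay at 208.1, 219.2, 228.2 and 207.7 CPM in control libraries. The Hdac1-deficient libraries held 276.6, 256.9, 268.3 and 259.2 CPM and the Hdac2-deficient libraries 283.9, 262.4, 261.1 and 259.3 CPM. Every mutant library exceeded every control, and the mutants overlapped each other. Klf5 rose by 0.31 (0.24 to 0.39, adjusted p = 2.3e-07, edgeR) in Hdac1-deficient and by 0.32 (0.24 to 0.39, adjusted p = 8.9e-08, edgeR) in Hdac2-deficient enteroids, or 24.2% and 24.5%. Hdac2-deficient library 1 stood apart from its group, and the value without it was 0.29 (adjusted p = 7.2e-07, edgeR). The direct difference between mutants was -0.0066 (-0.08 to 0.07, adjusted p = 0.90, edgeR), an interval from 5.32% lower to 4.65% higher.

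The Klf5 to Klf4 count ratio was 5.94 ± 0.219 in control, 6.51 ± 0.27 in Hdac1 mutants and 5.73 ± 0.373 in Hdac2 mutants, and each mutant's range, 6.25 to 6.85 and 5.34 to 6.21, overlapped the control range of 5.80 to 6.27. The summed level of both genes went from 53.4 ± 2.11 CPM per kilobase in control to 64.4 ± 2.21 and 66.6 ± 2.19, with no overlap between control (51.5 to 55.8) and either mutant (62.2 to 67.0 and 64.5 to 69.6).

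Foxa1, on chromosome 12 (57540628 to 57546916, minus strand), showed the largest rise of the 8 in both mutants. Its control libraries held 27.46, 27.65, 27.96 and 26.67 CPM. The Hdac1-deficient libraries held 39.10, 40.02, 39.37 and 35.18 CPM and the Hdac2-deficient libraries 42.15, 47.12, 46.36 and 43.99 CPM. The 3 groups were separate in every library, with Hdac2-deficient enteroids highest. Foxa1 rose by 0.50 in Hdac1-deficient enteroids (0.40 to 0.60, adjusted p = 2e-08, edgeR), which is 1.41-fold, and by 0.72 in Hdac2-deficient enteroids (0.63 to 0.81, adjusted p = 1.3e-11, edgeR), which is 1.65-fold. Among all tested genes these absolute changes exceeded 73.6% and 86.4% of genes. The direct difference was -0.22 (-0.32 to -0.13, adjusted p = 0.00027, edgeR), with Foxa1 lower in Hdac1-deficient enteroids.

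Foxa2, on chromosome 2 (148042877 to 148046969, minus strand), was the only member that passed with a lower level against control. It lay at 29.88, 29.17, 29.78 and 28.13 CPM in control, 18.65, 19.91, 18.95 and 16.75 CPM in Hdac1 mutants and 19.76, 20.63, 17.71 and 19.96 CPM in Hdac2 mutants. No mutant library reached any control, and the mutants overlapped. In Hdac1 mutants Foxa2 fell by 0.64, the fitted log2 change being -0.64 (-0.75 to -0.53, adjusted p = 3.3e-09, edgeR), and in Hdac2 mutants by 0.57, at -0.57 (-0.68 to -0.46, adjusted p = 4.9e-09, edgeR). The remaining level was 0.642 and 0.674 of control. Between the mutants the difference was -0.07 (-0.19 to 0.05, adjusted p = 0.33, edgeR), an interval from 12.5% lower to 3.39% higher.

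The start windows of this pair are shown because its members moved in opposite directions, with capitals as for Cdx2. The Foxa1 window is chr12:57546112-57546361 and the Foxa2 window, before the outermost of its 3 RefSeq starts, is chr2:148046970-148047219, both GRCm38.p6, on the minus strand and read 5′ to 3′ towards the gene.
Foxa1: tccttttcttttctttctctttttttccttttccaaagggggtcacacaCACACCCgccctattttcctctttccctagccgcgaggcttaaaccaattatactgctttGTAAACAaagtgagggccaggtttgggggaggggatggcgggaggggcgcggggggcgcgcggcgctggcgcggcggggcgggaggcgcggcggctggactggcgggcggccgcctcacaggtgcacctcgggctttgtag
Foxa2: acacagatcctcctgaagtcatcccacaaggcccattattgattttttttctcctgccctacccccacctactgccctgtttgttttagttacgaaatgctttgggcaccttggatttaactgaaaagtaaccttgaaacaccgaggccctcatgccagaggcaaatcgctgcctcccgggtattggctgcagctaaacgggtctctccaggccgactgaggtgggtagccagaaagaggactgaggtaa
The Foxa1 window held the reverse complement of the FOXA word, GTAAACA, 141 to 135 bases before the start, and of the KLF word, CACACCC, 201 to 195 bases before it. The Foxa2 window held none of the 4 words, and neither did the window of Klf4, which is not shown. Of the other Foxa2 windows, 1 held the GATA word, 183 to 178 bases before its start. The Foxa1 window lies inside the gene's span in GENCODE M21, since that annotation also has a start further upstream, and shares 10 bases with its exons.

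With both changes together, the ratio of Foxa1 to Foxa2 counts within a library went from below to above 1. It was 0.938 ± 0.0136 in control (0.919 to 0.948), 2.07 ± 0.0419 in Hdac1-deficient (2.01 to 2.10) and 2.31 ± 0.214 in Hdac2-deficient enteroids (2.13 to 2.62). Per length, Foxa1 made up 40.1 ± 0.351% of the pair in control, 59.6 ± 0.492% in Hdac1 mutants and 62.1 ± 2.1% in Hdac2 mutants. The sum of the pair moved far less, at 20.6 ± 0.488, 19.4 ± 1.21 and 21.7 ± 0.802 CPM per kilobase, with 19.9 to 21 in control, 17.6 to 20.4 in Hdac1 mutants and 21 to 22.9 in Hdac2 mutants. The control range met that of each mutant, while the ranges of the mutants did not overlap each other. Foxa3, the third member of the family and a regulator of metabolic genes in liver and gut, was lower in each mutant, its log2 change being -0.20 (-0.31 to -0.10, adjusted p = 0.0018, edgeR) and -0.38 (-0.48 to -0.29, adjusted p = 3e-07, edgeR). With Foxa3 added, the family sum was 42.9 ± 1.43 CPM per kilobase in control, 38.6 ± 2.19 in Hdac1 mutants and 38.7 ± 0.54 in Hdac2 mutants, and the share of Foxa1 was 19.2 ± 0.744%, 29.9 ± 0.47% and 34.8 ± 1.48%.

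**Figure D4:**
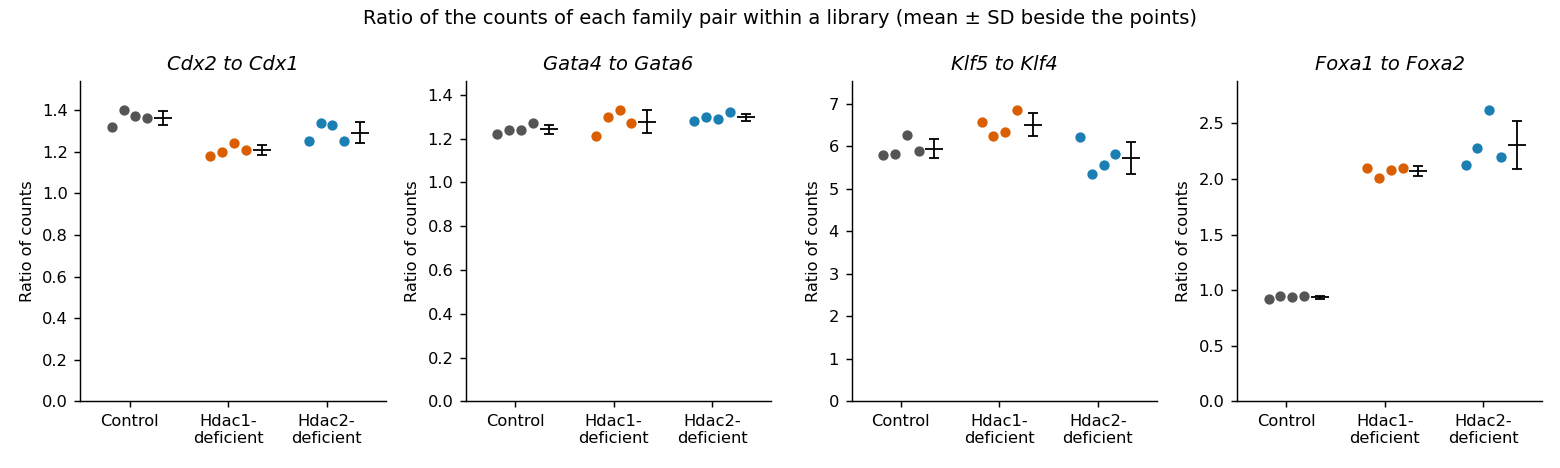
Ratio of the counts of the 2 genes of each family within each library (vertical axes from 0), 1 point per library, with the group mean ± SD beside the points. The Foxa1 to Foxa2 ratio is 0.919 to 0.948 in the 4 control libraries and 2.01 to 2.62 in the 8 mutant libraries, while the other 3 ratios stay between 1.18 and 1.40, 1.21 and 1.33, and 5.34 and 6.85.

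Compared directly, the mutants differed in 5 of the 8 factors (1 higher and 4 lower in Hdac1-deficient enteroids), where 45.9% of 14510 tested genes passed (22.3% higher and 23.7% lower), and in 0 by more than 2-fold, where 5.62% did. Cdx1 was the 1 higher member, and Gata4, Gata6, Klf4 and Foxa1 were lower in Hdac1-deficient enteroids. The libraries of the 2 mutants did not overlap for 4 members, against 41.7% of all tested genes. The largest of the 5 differences, that of Foxa1, was 0.858-fold (0.803 to 0.916). Both mutants were compared with the same 4 control libraries, so their changes against control are set side by side only.

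Markers of cell types moved with these changes. The summed level of the 10 stem cell markers (Lgr5 and Olfm4 among them) was 5251 to 5387 CPM in control, 3184 to 3669 CPM in Hdac1 mutants and 2984 to 3215 CPM in Hdac2 mutants. In each mutant 8 of 10 were lower, where 31.9% and 30.9% of all tested genes were. In Hdac1 mutants 2 were higher and in Hdac2 mutants 1, with 1 in each mutant by more than 2-fold. The sum leaned on Olfm4, which had up to 84958 counts in a library. The summed level of 14 enterocyte markers was 9975 to 10430, 18940 to 21410 and 15400 to 17170 CPM, with 13 and 14 of 14 higher. Over all tested genes, 32.7% and 31.4% were higher. The Paneth cell markers were mixed. Of 9 tested, 3 were higher, 2 lower and 4 did not pass in Hdac1 mutants (median log2 fold change 0.041), and 6 were higher, 1 lower and 2 did not pass in Hdac2 mutants (median 0.32). Their summed level, 2193 to 2550, 3187 to 3466 and 3580 to 3748 CPM, leaned on Lyz1, the Paneth cell lysozyme, with means of 546, 1290 and 1210 CPM, while Habp2 was lower in both mutants, with means of 33.5, 16.2 and 25.5 CPM. In bulk RNA more cells of a type and more RNA per cell cannot be told apart, and the part of these shifts in the levels of the 8 factors was not tested.

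Across the 12 libraries, Klf4 and Foxa1 followed each other most closely among the members (Pearson r of log2 CPM = 0.951), followed by Klf5 and Foxa1 (r = 0.881). Foxa2 ran opposite to Klf5 (r = -0.893) and to Foxa1 (r = -0.847). Gata4 and Gata6 had r = 0.763, and Cdx1 and Cdx2 r = 0.214. These are descriptions over 12 libraries that fall into 3 groups and share their depth and scaling, so they mostly restate the group means. Of 14509 other genes, the pattern of Foxa2 was most like that of Cox15 (r = 0.991), Znhit2 (r = 0.989) and Rrm1 (r = 0.988). Foxa1 was most like Hexa (r = 0.986), Lgals9 (r = 0.985) and Npc1 (r = 0.984), and Klf4 most like St3gal1 (r = 0.990), with Trib1 (r = 0.977) and Ces2b next. Klf5 was nearest to Dcaf10, Rusc2 and Ddi2 (r = 0.968, 0.968 and 0.965), and Cdx1 to Psme2, Psme1 and Prr22 (r = 0.961, 0.959 and 0.954). Gata4 was nearest to Gstk1, Nedd9 and Sult1d1 (r = 0.960, 0.953 and 0.950), and Gata6 to Vdr, the vitamin D receptor, Mir8116 and Fam212b (r = 0.909, 0.903 and 0.894). Cdx2 had the weakest best match, Zbtb8a (r = 0.852).

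Of the other CDX, GATA, KLF and FOXA genes, 13 of 21 were tested, and in Hdac1-deficient enteroids 4 rose, 7 fell and 2 did not pass, with a median log2 fold change of -0.12 beside -0.0040 over all genes. In Hdac2-deficient enteroids 4 rose, 4 fell and 5 did not pass, with a median of 0.024 beside -0.0036. Over all tested genes 32.7% rose and 31.9% fell in Hdac1 mutants, and 31.4% rose and 30.9% fell in Hdac2 mutants. Klf9, a factor induced by steroid and thyroid hormones, rose by 0.50 (adjusted p = 6.3e-07, edgeR) and by 0.92 (adjusted p = 1.2e-11, edgeR). Klf6 rose by 0.19 (adjusted p = 0.00019, edgeR) and 0.39 (adjusted p = 1.3e-09, edgeR), and Klf7 fell by 0.75 (adjusted p = 4.4e-10, edgeR) and 0.19 (adjusted p = 0.0045, edgeR). Klf2, which passed the 2-fold limit, fell by 1.84 (adjusted p = 4.8e-06, edgeR) and 1.38 (adjusted p = 5.8e-05, edgeR) from a control level of only 1.08 CPM. Gata5, the third intestinal GATA factor, rose by 0.18 (adjusted p = 0.00048, edgeR) in Hdac1-deficient enteroids. In Hdac2 mutants Gata5 rose by 0.10 (adjusted p = 0.039, edgeR), a call that changed under 10 alternatives and was kept under 7. Among others it was lost without control library 4 (0.066, adjusted p = 0.20, edgeR). The same held without control library 3, Hdac2-deficient library 1 or library 4 (adjusted p = 0.057, 0.077 and 0.19, edgeR).

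The 8 factors work with other intestinal regulators, 22 of which were tested. In Hdac1-deficient enteroids 5 of these partners rose, 10 fell and 7 did not pass, and in Hdac2-deficient enteroids 9 rose, 8 fell and 5 did not pass. Their median log2 fold changes were -0.072 and 0.022. Beside them, 32.7% of all tested genes rose and 31.9% fell in Hdac1 mutants, and 31.4% rose and 30.9% fell in Hdac2 mutants. Hnf4g, an enterocyte nuclear receptor, rose by 0.52 and 0.44 (adjusted p = 2.4e-08 and 5.2e-09, edgeR), and Creb3l3, a membrane-bound regulator of lipid metabolism, by 0.70 and 0.51 (adjusted p = 3.1e-12 and 5.2e-10, edgeR). Hnf4a, the paralog of Hnf4g, rose by 0.089 and 0.17 (adjusted p = 0.017 and 2e-05, edgeR), and the first of these was lost without control library 4 (adjusted p = 0.062, edgeR). Maf, active in mature enterocytes, rose by 1.04 and 1.15 (adjusted p = 1.4e-10 and 1.1e-12, edgeR). Ascl2, the crypt stem cell regulator, fell by 0.80 and 0.44 (adjusted p = 4.1e-08 and 5.2e-08, edgeR). Pdx1, the homeodomain factor of the duodenum and gastric antrum, separated the mutants, with 2.32 CPM in control, 1.90 CPM in Hdac1 mutants and 6.66 CPM in Hdac2 mutants. Pdx1 rose by 1.51 in Hdac2-deficient enteroids (adjusted p = 3e-10, edgeR) and had a value of -0.28 in Hdac1-deficient enteroids (adjusted p = 0.094, edgeR, and -0.36 with adjusted p = 0.04 without control library 4).

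Genes known to depend on CDX2, KLF4, KLF5 and FOXA factors were grouped by factor, and no list was named after the GATA factors. Of 16 jejunal enterocyte genes, 15 rose and 1 fell in each mutant. Of 8 tested ileal enterocyte genes, 7 rose in each mutant, and 1 fell in Hdac1-deficient enteroids. Of the tested colonic genes, 6 of 7 rose and 1 fell in Hdac1 mutants, and 6 of 8 rose and 2 fell in Hdac2 mutants. Of 18 tested CDX2-dependent genes, 14 rose and 2 fell in Hdac1-deficient enteroids, and 15 rose and 1 fell in Hdac2-deficient enteroids. The medians were 0.42 and 0.39. Among all tested genes 32.7% rose and 31.9% fell in Hdac1 mutants, and 31.4% rose and 30.9% fell in Hdac2 mutants. Lct, the lactase gene of the brush border, rose by 2.86 and 2.03 (adjusted p = 7.4e-09 and 7.3e-06, edgeR), and Mep1a, a brush border protease, by 2.21 and 1.59 (adjusted p = 1.5e-16 and 3.5e-17, edgeR). Cldn2, a tight junction protein of the crypt chosen here after its values were seen, fell by 0.59 and 0.23 (adjusted p = 4.5e-12 and 2e-07, edgeR). Of the 18 genes, 4 and 2 rose by more than 2-fold, where 10.6% and 8.3% of all tested genes moved that far in either direction. The intervals of Cdx2 itself lay within 5.46% of control, and the part of Cdx2 in the levels of these genes was not tested. Enterocyte markers in the CDX2-dependent group overlap the enterocyte list, whose summed level also rose.

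**Figure D5:**
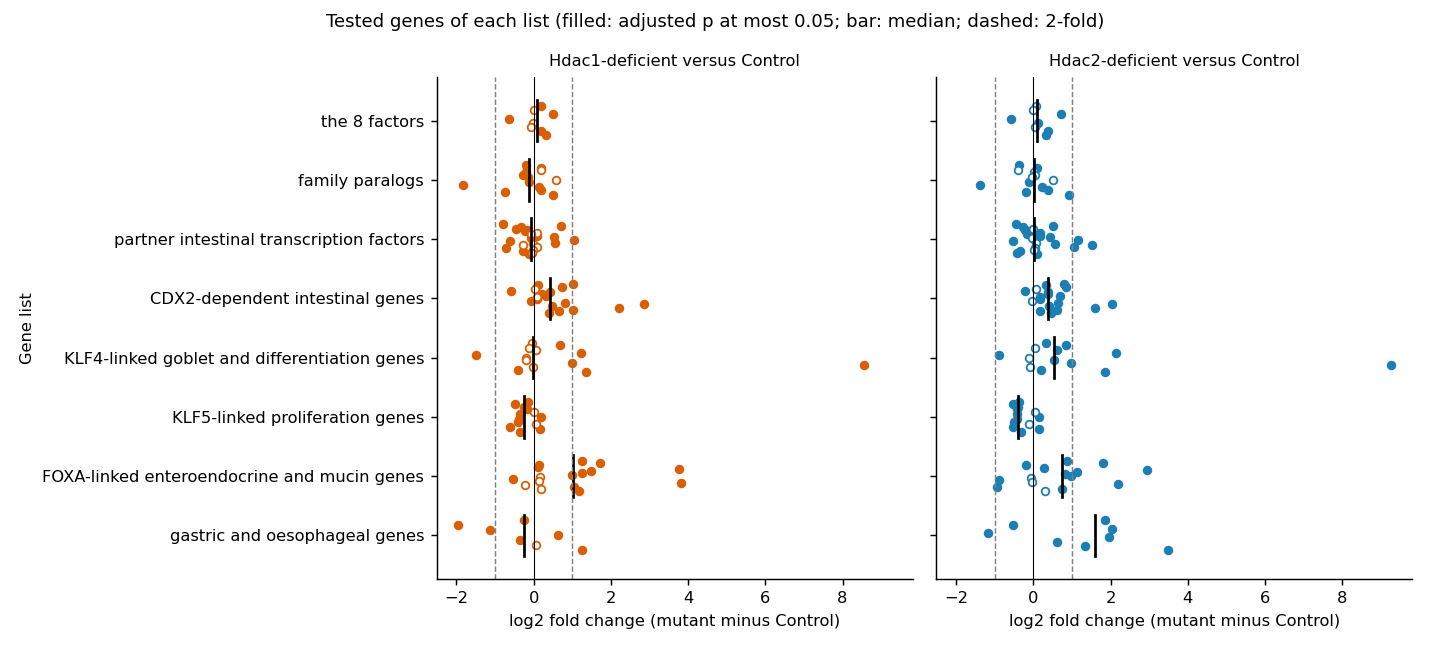
Log2 fold change against control (horizontal axes) of every tested gene of 8 gene lists in Hdac1-deficient and Hdac2-deficient enteroids, filled up to an adjusted p of 0.05, with the list median as a bar and 2-fold as dashed lines. The 8 factors stay inside the 2-fold lines while genes of the lists named after them lie beyond these lines, except in the KLF5-linked list, and the point farthest to the right is Retnlb, which had 2 to 4 counts in the control libraries.

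Of 13 genes linked to KLF4 in goblet cells and differentiation, 5 rose and 2 fell in Hdac1-deficient enteroids (median -0.029). In Hdac2-deficient enteroids 9 rose and 1 fell (median 0.53). The shares of all tested genes were 32.7% higher and 31.9% lower in Hdac1 mutants, and 31.4% higher and 30.9% lower in Hdac2 mutants. The largest fall was that of Creb3l1, a membrane-bound bZIP transcription factor, by 1.48 and 0.89 (adjusted p = 4.5e-13 and 2.8e-13, edgeR). Zg16, a goblet cell granule lectin, rose by 1.36 and 1.86 (adjusted p = 1.6e-12 and 9.5e-21, edgeR), and Clca1, a secreted goblet cell protein, by 1.22 and 2.13 (adjusted p = 2.3e-13 and 1.1e-21, edgeR). For both mutants the paper reported more goblet cells by staining, and higher Zg16 and lower Creb3l1 by qPCR. Directly compared, 9 of the 13 were lower in Hdac1-deficient enteroids and 0 higher at an adjusted p of 0.05 by edgeR. In that comparison 23.7% of all tested genes were lower and 22.3% higher. Klf4 was also lower in Hdac1-deficient enteroids, and a link between its level and the KLF4-linked genes was not tested. Of 13 proliferation genes linked to KLF5, 2 rose and 9 fell in each mutant (medians -0.24 and -0.40). Klf5 rose in both mutants, and a link between its level and these genes was not tested. Myc fell by 0.61 and 0.54 (adjusted p = 2.2e-11 and 1.7e-12, edgeR), and Ccna2, cyclin A2, by 0.48 and 0.53 (adjusted p = 7.4e-11 and 7.2e-13, edgeR). By BrdU labelling the paper found no significant change in proliferation in the mutants.

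Among enteroendocrine and mucin genes linked to FOXA factors, 11 of 16 tested rose and 1 fell in Hdac1-deficient enteroids (median 1.01). In Hdac2-deficient enteroids 9 of 15 rose and 3 fell (median 0.75). For all tested genes, 32.7% rose and 31.9% fell in Hdac1 mutants, and 31.4% rose and 30.9% fell in Hdac2 mutants. Gcg, the glucagon-like peptide precursor, rose by 3.76 and 2.95 (adjusted p = 2.6e-14 and 3.3e-16, edgeR), and Cck, cholecystokinin, by 1.71 and 1.79 (adjusted p = 2.3e-10 and 1.1e-12, edgeR). Chga, an enteroendocrine cell marker chosen here after its values were seen, lay above control in Hdac1 mutants and below control in Hdac2 mutants. It was at 39.86 to 42.32 CPM in control, 43.56 to 46.02 CPM in Hdac1 mutants and 33.25 to 37.32 CPM in Hdac2 mutants. By qPCR the paper reported higher ChgA in both mutants, while in these libraries it was higher in Hdac1 mutants only. Gastric and oesophageal genes, which CDX2 holds down in intestine, were mostly at low counts. In Hdac1-deficient enteroids 2 of 7 tested rose and 4 fell (median -0.25), and in Hdac2-deficient enteroids 6 of 8 rose and 2 fell (median 1.60). In the direct comparison 7 of 8 were lower in Hdac1-deficient enteroids, where 23.7% of all tested genes were. The summed level of the gastric and oesophageal genes was 51.34 to 57.85 CPM in control, 36.24 to 39.27 CPM in Hdac1 mutants and 110.7 to 128.6 CPM in Hdac2 mutants. Most of the rise of the sum in Hdac2 mutants lay in 1 gene. Anxa10, an annexin of gastric epithelium chosen here after its values were seen, was at 24 to 26.73, 19.25 to 22.7 and 81.73 to 99.48 CPM, and without it the sum was 26.91 to 31.69 CPM in control, 16.35 to 17.04 CPM in Hdac1 mutants and 27.34 to 29.5 CPM in Hdac2 mutants. Atp4a, the catalytic subunit of the gastric proton pump, fell by 1.95 and 0.52 (adjusted p = 9.4e-09 and 0.0095, edgeR) from a control mean of 2.45 CPM. Gkn3, a gastrokine, fell by 1.13 and 1.17 (adjusted p = 1.1e-09 and 4e-09, edgeR) from 15.9 CPM. Its control level, 14.25 to 18.78 CPM, was a large part of the sum without Anxa10. In Hdac2 mutants its fall offset rises in that sum, since 6 of 8 tested genes rose. The fall of Gkn3 is not read as a loss of gastric character. Vsig1, a gastric junction protein with 0 to 9 counts per control library, 13 to 22 per Hdac1-deficient and 50 to 78 per Hdac2-deficient library, rose by 1.25 and 3.49 (adjusted p = 0.01 and 1.4e-09, edgeR). Cdx2 did not pass the direct test between the mutants (0.03, -0.03 to 0.09, adjusted p = 0.44, edgeR). Whether Cdx2 plays a part in the levels of these gastric genes was not tested.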

How the data were processed

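RNA-Seq counts of 12 enteroid libraries were analysed, 4 per genotype as labelled. The authors selected poly(A) RNA, made directional libraries, aligned paired reads to GRCm38 with STAR (2.4.0f1 per the labels' processing notes, with bcl2fastq 1.8.4) and deposited whole-number counts per gene without normalization, in 1 table per mutant, limited to genes whose counts summed to 10 or more (18676 and 18225 genes, 17972 in both, with identical control values). The counting program was not given in the sources used here. The 16 deposited columns of normalized per-library values, and the authors' own fold changes and p-values, were not used.

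Counts were fitted with edgeR 4.0.16 in R 4.3.3 (TMM, filterByExpr, robust quasi-likelihood F test, Benjamini-Hochberg over all tested genes). Mutant and control were compared in fits of 8 libraries, and the mutants with each other in all 12. Genes passed up to an adjusted p of 0.05, and the 2-fold calls also needed an absolute log2 fold change above 1. CPM used TMM factors of the 12 libraries (0.97992 to 1.0222). The common coefficient of variation was 0.0425, 0.0384 and 0.0394. Exon lengths came from GENCODE M21, and start windows from RefSeq, used for 4 of the 8 members (Cdx2, Klf4, Foxa1 and Foxa2). A count of 3 equalled 0.0971 to 0.145 CPM, and counting error is all that such a floor covers. Code was tested on simulated counts. Figures were drawn with Python 3.11.15 and matplotlib 3.10.9.

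The members, lists and alternatives were chosen with earlier results of these data known. The text names every member, Hdac1 and Hdac2, genes of the partner and paralog lists, up to 3 genes per other list and mutant with the largest change among those that passed without overlap, and the 3 genes most like each member. Pdx1, Gata5, Klf6 and others of the first 2 lists could be named whatever their values. Alternatives to this fit were DESeq2 1.42.0, scaling by RLE factors or by library size only, leaving low counts unfiltered or asking for a mean of 10, a term for the replicate number, a test against 1.5-fold, a stricter adjusted p of 0.01, fits with more or fewer groups, and fits without each library.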

Additional observations from a re-analysis of the deposited data

Results flagged for a closer look

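Among 24 groups of 4 libraries, 1 for each factor and genotype, 2 had a library apart from the other 3, where chance gives about 1 in 20 groups. For Gata6 in control, library 4 was lowest and its gap to the next was 0.924 of the range. For Klf5 in Hdac2-deficient enteroids, library 1 was highest with a gap of 0.874 of the range. Without these libraries, no call of Gata6 or Klf5 against control changed.

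The 2 mutants differed from each other in the direct edgeR test for 5 of the 8 factors, with log2 differences (Hdac1-deficient minus Hdac2-deficient) of 0.13 for Cdx1, -0.13 for Gata4, -0.11 for Gata6, -0.19 for Klf4 and -0.22 for Foxa1. Of the family paralogs named, the same difference was 0.18 for Foxa3, -0.20 for Klf6, -0.56 for Klf7 and -0.42 for Klf9. Of the partner factors it was -0.086 for Hnf4a, 0.19 for Creb3l3, -1.80 for Pdx1 and -0.36 for Ascl2. The call of Hnf4a between the mutants was lost without Hdac2-deficient library 2 (adjusted p = 0.052, edgeR) and with scaling by library size only (adjusted p = 0.085, edgeR). Of the other genes it was 0.84 for Lct, 0.61 for Mep1a, -0.36 for Cldn2, -2.24 for Vsig1, 0.80 for Gcg, -0.51 for Zg16, -0.91 for Clca1, -0.60 for Creb3l1, -1.44 for Atp4a, -2.11 for Anxa10, -0.65 for Habp2 and -0.72 for Retnlb.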

How the results depend on the processing

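The calls of the 8 factors kept their side of the threshold under DESeq2, other scalings, other filters, an adjusted p of 0.01 and other sets of libraries. With each library left out in turn, 5 to 5 members passed in Hdac1-deficient, 5 to 6 in Hdac2-deficient enteroids and 5 to 5 between the mutants, the sixth being Cdx1 without control library 1. Against a 1.5-fold change, 0 members passed in Hdac1 mutants, 1 in Hdac2 mutants (Foxa1) and 0 between the mutants, and the counts over all genes were 1907, 1460 and 853 in place of 9196, 8729 and 6665, since this test asks for more than a difference from 0. The sign of the Klf5 difference between the mutants, which never passed, turned to 0.022 with library size alone and 0.0016 with a mean of at least 10 counts, and lay between -0.025 and 0.024 with single libraries left out. It was 4e-04 without control replicate 1, 0.017 without Hdac1-deficient replicate 2, 0.0053 without replicate 4 and 0.024 without Hdac2-deficient replicate 1. The Gkn3 difference between the mutants, which never passed either, ranged from -0.030 to 0.12 and turned to -0.0022 without Hdac1-deficient replicate 1 and -0.030 without Hdac2-deficient replicate 2. The cause was not tested.

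Same-numbered libraries deviated from their group means with correlations of -0.046 to 0.091, so that none reached 0.1, and the numbers were not taken to pair the samples. As a hint from the data only, their own number was the closest of 4 in 11 of 24 cases, where 6 would arise if the numbers meant nothing. With the replicate number as a block, 5 members passed in each comparison, and 8923, 8891 and 6706 genes in all.

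The factors had at least 366 counts in each library, and counting error is part of the spread between libraries. With crypts from 1 mouse of each genotype according to the methods, and Xist differing, genotype cannot be told apart from animal.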
